A study of Mus musculus with 9 samples.

Results

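The genes described here are 9 Toll-like receptor genes, Tlr1, Tlr2, Tlr3, Tlr4, Tlr6, Tlr7, Tlr8, Tlr9 and Tlr13, together with Cd14, followed across all libraries of a macrophage experiment. They were taken by gene symbol from a count table of 46095 symbols, which lists all 10 of them, and all 10 passed the filter on low counts that left 14026 genes to test. RNA was sequenced from bone marrow-derived macrophages, cells grown in culture from marrow precursors, of wild-type Balb/c mice aged 6 weeks. Of the 9 libraries, 3 were labelled control, 3 LPS and 3 LPS plus BHB, and strain, genotype and age were the same in every group. LPS is the usual abbreviation of lipopolysaccharide, an outer membrane component of Gram-negative bacteria. BHB usually abbreviates beta-hydroxybutyrate, a ketone body. The labels spell out neither and give no dose or time. No library received BHB without LPS. Nothing in the labels says that replicates are separate cultures or mice, so the spread behind each p-value may be technical.

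Toll-like receptors are membrane proteins of innate immune cells that bind conserved microbial molecules and signal through adaptor proteins to NF-kB and interferon regulatory factors. Those at the cell surface recognise bacterial envelope components: TLR4, helped by the co-receptor CD14 and by MD-2, the product of Ly96, recognises lipopolysaccharide, and TLR2 pairs with TLR1 or TLR6 to recognise lipoproteins. Those in endosomes (TLR3, TLR7, TLR8, TLR9 and TLR13) recognise nucleic acids and depend on the chaperone UNC93B1 to reach that compartment.

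Total counts ranged from 29633411 to 32798920 per library. All 8 macrophage markers of a fixed list were tested, and their summed level was 18600 to 21900 CPM (read counts relative to library size, after TMM adjustment of library totals) in the control group, 8320 to 9540 in the LPS group and 9820 to 10300 in the LPS plus BHB group. Most of that sum was Lyz2, with means of 14580, 5061 and 5883 CPM in the same order. With LPS 2 of the 8 markers were called higher and 6 lower (all genes: 38.4% and 41.4%). The 2 higher ones were Adgre1, from a mean of 862 to 1315 CPM, and Spi1, from 385 to 750 CPM. Among the 6 lower ones, Fcgr1 fell from a mean of 161 to 1.78 CPM and Csf1r from 2509 to 629 CPM. B cells and plasmacytoid dendritic cells are other cells known for Tlr7 and Tlr9. Of their markers, Ms4a1 had 0 to 2 counts over all 9 libraries, Pacsin1 had none and Siglech had 6 to 15 in the controls and 0 to 1 in the others. The 6 B cell markers summed to 1.99 to 3.04 CPM in controls, 0.495 to 1.12 in LPS libraries and 0.104 to 0.529 in LPS plus BHB libraries, mostly from Cd79b (61 to 106, 12 to 17 and 1 to 6 counts). The 6 plasmacytoid dendritic cell markers summed to 463 to 494, 267 to 277 and 269 to 279 CPM in the same order, nearly all from Irf8 and Tcf4, which macrophages also express. The 6 conventional dendritic cell markers summed to 2.03 to 2.70 CPM in controls, 17.9 to 22.0 in LPS libraries and 12.6 to 14.6 in LPS plus BHB libraries. Nearly all of the sums in the treated groups came from Zbtb46 (17.5 to 21.9 CPM with LPS). Cd209a, the other tested marker of that list, went the opposite way. It had 43 to 46 counts per control library, 0 to 2 with LPS and 0 to 1 with LPS plus BHB. Flt3 and Clec9a had at most 8 and 7 counts in any library. The 8 markers of neutrophils and their precursors summed to 3.69 to 5.38, 1.82 to 2.93 and 4.24 to 7.49 CPM, and the 6 stromal markers to 7.94 to 14.3, 3.50 to 8.36 and 4.52 to 11.1 CPM. In bulk libraries such as these, fewer cells of a type and less RNA per cell cannot be told apart. Acod1, an LPS-induced gene, had 24, 1739 and 1808 counts in control replicates 1, 2 and 3, and Il12b, another, had 0, 223 and 213. With control replicate 1 as the only control, no call of the 10 genes in LPS against control was different.

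The promoters of 7 of the 10 genes were in the RefSeq table used here (build GRCm38.p6), with 9 annotated starts. The sequences below are the parts of the 250 bases before a start that lie outside annotated exons. They are shown for Tlr2, which had the largest fold rise with LPS, and for Tlr9 and Tlr13, which had the largest fold falls. The neighbouring genes Tlr1 and Tlr6, whose changes differed, are shown as well. They run 5′ to 3′ on the strand of the gene. Capitals mark matches to the motifs searched on both strands: the kappa B motif of NF-kB, the interferon response motif (GAAA repeated after 2 bases), the PU.1 core GAGGAA, C/EBP TTGCNNAA, AP-1 TGANTCA, the cyclic AMP motif TGACGTCA and the hypoxia motifs ACGTG and GCGTG.
Tlr2, chr3:83841768-83841858, minus strand: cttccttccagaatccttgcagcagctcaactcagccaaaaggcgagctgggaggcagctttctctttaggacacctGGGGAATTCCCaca
Tlr1, chr5:64933564-64933808, minus strand: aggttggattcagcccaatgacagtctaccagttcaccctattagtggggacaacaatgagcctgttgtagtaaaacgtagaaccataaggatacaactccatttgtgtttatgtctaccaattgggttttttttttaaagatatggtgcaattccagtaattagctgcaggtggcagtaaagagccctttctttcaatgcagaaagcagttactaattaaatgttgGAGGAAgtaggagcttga
Tlr6, chr5:64960098-64960298, minus strand: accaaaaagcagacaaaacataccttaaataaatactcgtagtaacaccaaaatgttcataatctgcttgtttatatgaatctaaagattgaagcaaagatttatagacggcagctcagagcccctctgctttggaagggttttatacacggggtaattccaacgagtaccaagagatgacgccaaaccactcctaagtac
Tlr9, chr9:106222348-106222597, plus strand: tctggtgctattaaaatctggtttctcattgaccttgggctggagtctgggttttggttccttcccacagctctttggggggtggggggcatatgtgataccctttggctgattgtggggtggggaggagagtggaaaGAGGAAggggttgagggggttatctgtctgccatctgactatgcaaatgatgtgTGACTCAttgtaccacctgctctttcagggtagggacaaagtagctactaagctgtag
Tlr13, chrX:106143025-106143203, plus strand: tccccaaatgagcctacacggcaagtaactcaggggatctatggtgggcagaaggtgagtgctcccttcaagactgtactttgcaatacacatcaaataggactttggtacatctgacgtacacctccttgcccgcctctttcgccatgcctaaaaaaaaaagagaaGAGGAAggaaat
All distances are to the RefSeq start. The GENCODE annotation begins Tlr2 at base 83841767 and Tlr13 at 106143204, directly after the printed stretches, so distances to those starts are shorter. The Tlr2 stretch holds a kappa B match, which fits the letters in 3 overlapping placements beginning 172 to 173 bases before the start. Of 32536 promoter windows of 250 bases, 7.28% hold that motif. The Tlr1 stretch holds a PU.1 core 23 bases before the start, Tlr9 holds one at 112 and Tlr13 at 83, and 23.4% of all windows hold it. Tlr9 also holds an AP-1 match at 58 bases, a motif present in 6.73% of windows. The Tlr6 stretch holds none of the 8 motifs, whereas the window of a second, downstream Tlr6 start, which is not printed, holds overlapping interferon response matches at 116 and 110 bases (2.98% of windows) and a C/EBP match at 89 bases (9.57%). Among the other windows not printed, that of Tlr3, whose counts fell with LPS, holds a kappa B match at 211 bases and a C/EBP match at 95. Tlr8 holds a PU.1 core at 77 bases and a C/EBP match at 29. A second Tlr1 start holds overlapping ACGTG matches at 194 and 195 bases (16.7% of windows). A match describes letters in a window and no binding was measured.

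The LPS and control libraries were compared for the response of the macrophages to LPS. Among the surface receptor genes Tlr2, Tlr1 and Cd14 rose, Tlr4 fell and Tlr6 did not pass the test, while every endosomal receptor gene of the set fell. In all, 9 of 10 genes passed an adjusted p of 0.05 by edgeR's quasi-likelihood test, where 79.8% of all tested genes did, and the groups of the same 9 did not overlap, as in 82.7% of all genes. The 3 higher ones stand beside 38.4% of all genes called higher, and the 6 lower ones beside 41.4% called lower. At least 2-fold and called were 3 higher (18.7% of all genes) and 5 lower (26.3%), all of the lower ones but Tlr7. The 5 surface genes had a median log2 fold change of 1.64 and the 5 endosomal ones of -1.86, against -0.06 over all genes. Scaling by library totals alone in place of TMM shifted the median of all genes by -0.27 on the log2 scale and gave 37.7% of calls higher in place of 48.2%, so all changes are relative to the TMM scaling.

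Tlr2 encodes the shared chain of the lipoprotein receptors. It had 56.9, 67.3 and 61.2 CPM in the control libraries, 531, 526 and 547 with LPS, and 1231, 1228 and 1188 with LPS plus BHB. Its groups did not overlap in any comparison, and every LPS plus BHB library lay above every LPS library. The rise with LPS was 8.66-fold (log2 fold change 3.11 ± 0.06 SE; edgeR adjusted p = 3.99e-21) and 9.44-fold against control replicate 1 alone. Tlr2 lies on chromosome 3, 83836272 to 83841767 (GRCm38), and its transcript shares no 31-base word with other genes.

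Tlr1 encodes the partner of TLR2 for triacylated lipoproteins. It had 38.2, 43.8 and 40.9 CPM in the controls, 210.5, 217 and 196.5 with LPS alone, and 181, 199 and 200 when BHB was added. The control libraries lay apart from the treated ones, which overlapped each other. With LPS it rose 5.08-fold (log2 fold change 2.35 ± 0.06 SE; edgeR adjusted p = 8.46e-19). Tlr6, the partner gene for diacylated lipoproteins, lies next to Tlr1 on chromosome 5, with 18468 bases between them. It had 37.4, 35.1 and 36.1 CPM in the controls, 35.6, 40.4 and 39.3 with LPS alone, and 38.7, 38.0 and 40.0 when BHB was added. Its control and LPS libraries overlapped, and the log2 fold change of 0.09 (95% interval -0.05 to 0.22, adjusted p = 0.217 by edgeR) did not pass, whereas scaling by library totals turned it to -0.19 and past the threshold (adjusted p = 0.0128). Tlr1 and Tlr6 are near-identical over part of their sequence: 18.3% of the 31-base words of Tlr1 occur in Tlr6, and 16.4% of those of Tlr6 in Tlr1, so the deposited counts could be split between them to that extent. The ratio of Tlr1 to Tlr6 counts within a library, read only for its change, averaged 1.13 ± 0.11 in controls, 5.43 ± 0.46 in LPS libraries and 4.97 ± 0.28 in LPS plus BHB libraries (SD, n = 3).

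Cd14 encodes the co-receptor that hands lipopolysaccharide to TLR4 and MD-2. It had 506, 551 and 532 CPM in the controls, 1712, 1691 and 1550 with LPS alone, and 5921, 5515 and 5859 when BHB was added. The 3 groups were fully apart. Its rise with LPS was 3.12-fold (log2 fold change 1.64 ± 0.05 SE; edgeR adjusted p = 7.62e-17). Cd14 lies on chromosome 18, 36725067 to 36726798.

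Tlr4, the signalling receptor for lipopolysaccharide, went the other way. It had 169, 169 and 168 CPM in the controls, 24.1, 29.4 and 28.0 with LPS alone, and 24.9, 27.4 and 26.0 when BHB was added. The control libraries lay far above the other 6, which overlapped. With LPS it was 6.21-fold lower (log2 fold change -2.64 ± 0.06 SE; edgeR adjusted p = 3.42e-19). Within a library the ratio of Cd14 to Tlr4 counts, read only for its change, averaged 3.14 ± 0.13 in the controls, 61.3 ± 8.5 with LPS alone, and 221 ± 18 when BHB was added (SD, n = 3).

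Of the endosomal genes, Tlr9, the receptor for unmethylated CpG DNA, fell most. It had 36.0, 37.3 and 33.2 CPM in the controls, 3.27, 4.37 and 2.58 with LPS alone, and 3.46, 3.79 and 4.13 when BHB was added. Both treated groups lay below every control library and overlapped each other. With LPS it was 10.4-fold lower (log2 fold change -3.38 ± 0.13 SE; edgeR adjusted p = 1.24e-15), from 1202 to 1394 counts per library in control and 73 to 125 with LPS. The B cell and plasmacytoid dendritic cell sums were lower in the treated groups too, by the values given above. The latter fell through Irf8, with means of 331, 114 and 55.4 CPM in the control, LPS and LPS plus BHB groups. Tcf4 (means of 151, 158 and 217 CPM) and Ccr9 (0.203, 1.38 and 1.28 CPM) did not fall. The part of either cell type in the fall of Tlr9 was not tested.

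Tlr13, a receptor for bacterial ribosomal RNA found in mice, had 337, 338 and 361 CPM in the controls, 46.2, 49.8 and 51.1 with LPS alone, and 69.4, 69.6 and 72.1 when BHB was added. All 3 groups were apart, with LPS lowest. It was 7.04-fold lower with LPS (log2 fold change -2.82 ± 0.05 SE; edgeR adjusted p = 4.44e-21).

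Tlr8 and Tlr7, receptors for RNA and its breakdown products, are neighbours on chromosome X (from 167242696 and from 167304929). Tlr8 had 440, 440 and 416 CPM in the controls, 121.5, 121 and 115 with LPS alone, and 129, 137 and 145 when BHB was added. Tlr7 had 201, 212 and 203 CPM in the controls, 119, 120 and 130 with LPS alone, and 140, 153 and 160 when BHB was added. For both genes the 3 groups were apart, with control highest and LPS lowest. With LPS Tlr8 was 3.63-fold lower (log2 fold change -1.86 ± 0.05 SE; edgeR adjusted p = 1.63e-18) and Tlr7 1.67-fold lower (-0.74 ± 0.05 SE; edgeR adjusted p = 3.35e-11). The neighbours therefore fell by different amounts: the ratio of Tlr8 to Tlr7 counts within a library, read only for its change, was 2.05 to 2.19 in the controls, 0.882 to 1.02 with LPS alone, and 0.895 to 0.919 when BHB was added.

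Tlr3, the receptor for double-stranded RNA, had 17.2, 16.2 and 16.5 CPM in the controls, 5.61, 5.77 and 6.33 with LPS alone, and 6.82, 7.82 and 8.26 when BHB was added. The groups were apart in each comparison, and LPS was lowest. It was 2.82-fold lower with LPS (log2 fold change -1.50 ± 0.11 SE; edgeR adjusted p = 6.57e-11). An antisense gene, Gm45542, overlaps Tlr3, and 6.1% of the 31-base words of Tlr3 occur in it on either strand. With the strand setting not given, reads from that shared part cannot be told apart. The mouse receptor genes Tlr5, Tlr11 and Tlr12, outside the set, were barely detected: Tlr5 had 23 to 50 counts per control library, 0 to 1 with LPS and 1 to 4 with LPS plus BHB, and Tlr11 and Tlr12 had at most 2 and 4 counts in any library.

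**Figure D1:**
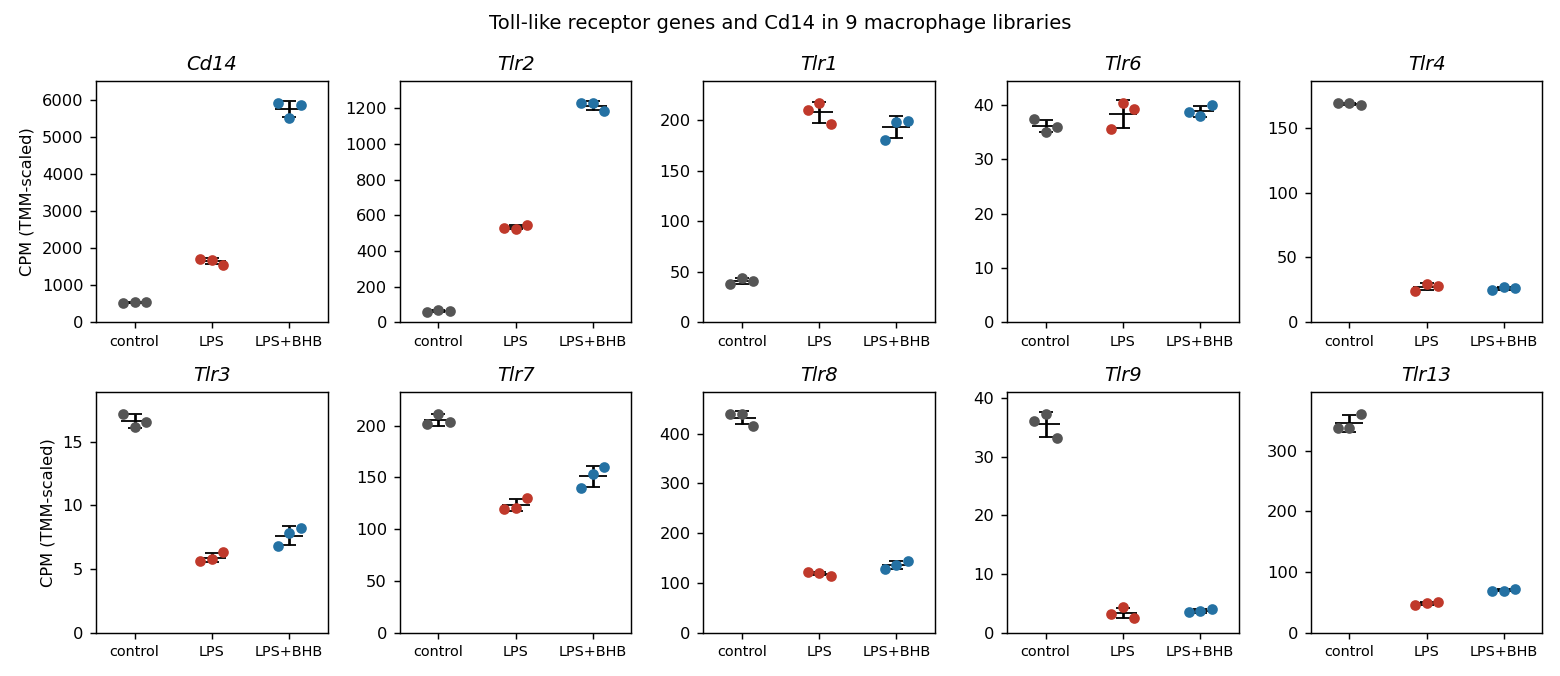
Level of each gene (CPM, TMM-scaled, linear axes from 0) in the control, LPS and LPS plus BHB libraries; points are libraries, and the bar and whiskers are mean and SD (n = 3). Cd14 and Tlr2 step up in both treated groups, Tlr4 and Tlr9 stay low in both, and Tlr6 lies between 35.1 and 40.4 CPM throughout.

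Adding BHB to LPS was examined by setting the LPS plus BHB libraries against the LPS libraries. Cd14 and Tlr2, already higher with LPS, were higher again, and 4 of the 5 endosomal receptor genes, Tlr13, Tlr7, Tlr8 and Tlr3, rose by small amounts from their LPS levels while staying below control. Tlr4, Tlr1, Tlr6 and Tlr9 did not pass. Thus 6 of 10 genes were called, all higher, where 50.7% of all tested genes were called, 26.4% higher and 24.4% lower. The groups of those 6 genes did not overlap, against 56.7% of all genes. Of the 14026 genes, 7.89% were called and at least 2-fold higher, among them Cd14 and Tlr2, while none of the 10 was among the 3.36% called and at least 2-fold lower. The median log2 fold change was 0.25 over the 10 genes and 0.01 over all genes.

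Cd14 rose 3.49-fold over LPS (log2 fold change 1.80 ± 0.05 SE; edgeR adjusted p = 3.06e-16), which placed it at percentile 96.7 of all fold changes. Tlr2 rose 2.27-fold (log2 fold change 1.18 ± 0.05 SE; edgeR adjusted p = 8.53e-14), at percentile 92.7. The neutrophil list was higher with added BHB as well, but near the floor, with a sum of at most 7.49 CPM. Ngp, Ltf and S100a8, the 3 of its 8 genes that were tested, were called higher (median log2 fold change 1.98). Counts per library went from 6 to 11 with LPS to 16 to 64 with LPS plus BHB for Ngp. They went from 0 to 12 to 10 to 36 for Ltf, and from 41 to 63 to 78 to 109 for S100a8. Ly6g and Mpo had no count in the LPS plus BHB libraries. The part of this list in the rise of Cd14 and Tlr2 was not tested. The partner genes of Tlr2 gave no call. Tlr1 was at -0.11 (95% interval -0.22 to 0.01, adjusted p = 0.107 by edgeR), but was called lower with no filter on low counts (-0.12, adjusted p = 0.0487), with library totals (-0.16, adjusted p = 0.0166) and without LPS replicate 3 (-0.16, adjusted p = 0.0337). Tlr6 was at 0.02 (95% interval -0.12 to 0.15, adjusted p = 0.848 by edgeR), or -0.03 with library totals. The difference for Tlr4 was -0.06, with an interval of -0.20 to 0.08 (adjusted p = 0.503 by edgeR), so a change of the size seen for Tlr2 or Cd14 lies outside that interval.

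Among the endosomal genes Tlr13 rose most, 1.43-fold (log2 fold change 0.52 ± 0.05 SE; edgeR adjusted p = 2.76e-08). Tlr7 rose 1.23-fold (0.29 ± 0.05 SE; edgeR adjusted p = 7.32e-05) and Tlr8 1.15-fold (0.20 ± 0.05 SE; edgeR adjusted p = 0.00155). The rise of Tlr3, 1.29-fold (0.37 ± 0.12 SE; edgeR adjusted p = 0.0115), lost its call without LPS plus BHB replicate 3 (0.31, adjusted p = 0.0501). Tlr9, at 0.15 with an interval of -0.18 to 0.48 (adjusted p = 0.445 by edgeR), rested on 73 to 125 counts per library, and a change of the size of that of Tlr7 lies inside its interval. These 5 values lie within 0.52 of 0 on the log2 scale, where the median absolute change of all tested genes was 0.34.

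**Figure D2:**
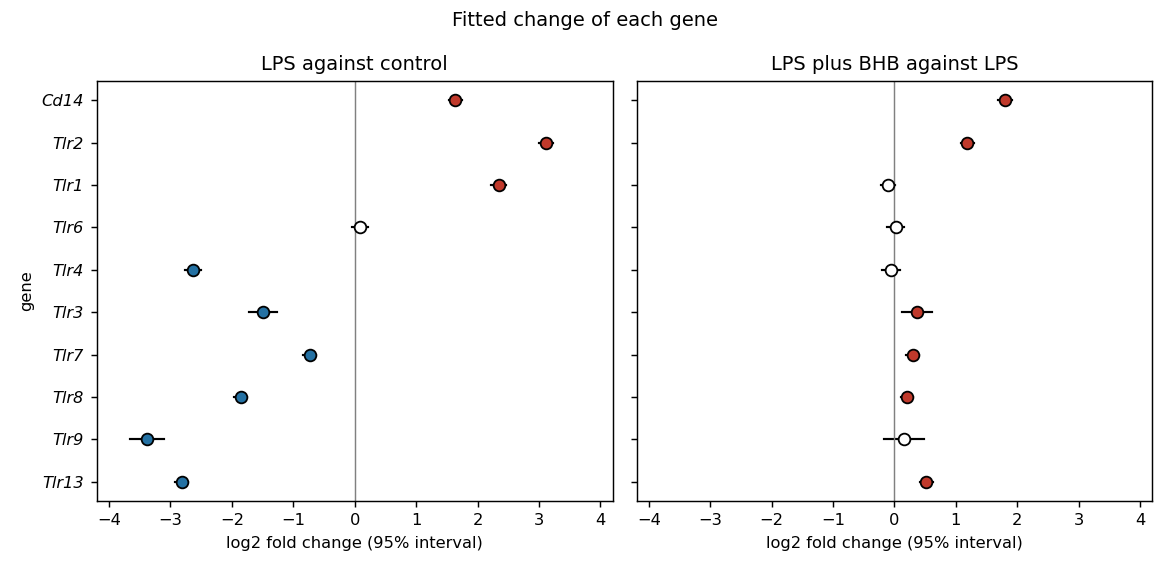
Fitted log2 fold change of each gene (points) with its 95% interval (lines) for LPS against control, left, and LPS plus BHB against LPS, right; red is called higher, blue called lower and white not called. On the left 3 genes lie above 0 and 6 below with Tlr6 at 0.09 (-0.19 when scaled by library totals), and on the right Cd14 at 1.80 and Tlr2 at 1.18 stand to the right of the other 8; both panels use the LPS libraries.

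Set against control, LPS plus BHB left 3 genes of the set higher and 6 lower, where 78.4% of all tested genes were called, 38.0% higher and 40.4% lower. Called and at least 2-fold were 3 higher (18.2% of all genes) and 5 lower (23.4%), and the groups of all 10 genes did not overlap, against 80.2% of all genes. This comparison shares its libraries with the comparisons above and is given as values. Tlr2 was 19.7-fold and Cd14 10.9-fold above control, and Tlr1 4.71-fold. Tlr9 was 9.36-fold, Tlr4 6.46-fold, Tlr13 4.91-fold, Tlr8 3.16-fold, Tlr3 2.18-fold and Tlr7 1.36-fold below control. For these 9 genes the largest adjusted p was 1.14e-07 by edgeR, that of Tlr7. Tlr6 was not called (log2 fold change 0.10, 95% interval -0.03 to 0.24, adjusted p = 0.142 by edgeR), but was called lower with library totals (-0.22, adjusted p = 0.00421).

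Levels of different genes can be compared once divided by gene length, here as RPKM, library-scaled reads per kilobase of merged exons. In control the order was Cd14 (306 ± 13 RPKM), Tlr8 (120.5 ± 3.8), Tlr13 (80.2 ± 3.2), Tlr7 (50.3 ± 1.4), Tlr4 (30.4 ± 0.2), Tlr2 (20.5 ± 1.7), Tlr1 (12.2 ± 0.8), Tlr9 (10.2 ± 0.6), Tlr6 (9.71 ± 0.31) and Tlr3 (3.19 ± 0.10; all SD, n = 3). Tlr9 and Tlr6 overlapped and the other neighbours in that order did not. With LPS Cd14 (953 ± 51 RPKM) was followed by Tlr2 (177.5 ± 3.7), Tlr1 (62.2 ± 3.2), Tlr8 (33.2 ± 1.0), Tlr7 (30.2 ± 1.5), Tlr13 (11.4 ± 0.6), Tlr6 (10.3 ± 0.7), Tlr4 (4.89 ± 0.50), Tlr3 (1.13 ± 0.07) and Tlr9 (0.979 ± 0.260). Tlr2 and Tlr1 were thus above Tlr8, Tlr13, Tlr7 and Tlr4, all of which stood above them in control, and Tlr4 was below Tlr6. Here Tlr13 overlapped Tlr6, and Tlr3 overlapped Tlr9. With LPS plus BHB the order was the same, with Cd14 at 3329 ± 126 and Tlr2 at 403 ± 8 RPKM, and Tlr8 (38.2 ± 2.3) overlapped Tlr7 (37.0 ± 2.5).

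Taking the 9 Toll-like receptor genes together, without Cd14, the summed level was 335 to 342 RPKM in the control libraries and 329 to 334 in the LPS libraries, but its make-up was exchanged. The 5 endosomal genes made up 78.4% ± 0.4 of the sum in the controls, 23.2% ± 0.1 with LPS alone and 16.5% ± 0.9 when BHB was added (SD, n = 3), and the 4 surface genes made up the rest. Tlr8 alone accounted for 35.7% ± 1.0 of the control sum, and Tlr2 for 53.5% ± 1.0 of the LPS sum and 70.7% ± 1.4 of the LPS plus BHB sum. With BHB the sum rose to 566 to 576.5 RPKM, of which Tlr2 was 394 to 408. The shares do not depend on how libraries are scaled, but the sums do. By library totals they averaged 387 RPKM in the controls, 315 with LPS alone, and 523 when BHB was added. Divided by longest transcript length instead, they averaged 363, 344 and 583 RPKM in the same order. The near-equal sums of control and LPS thus belong to the TMM scaling and the merged exon lengths. In control replicate 1 alone the endosomal share was 78.9%. No test was made on these sums, since the genes in them were tested one by one.

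**Figure D3:**
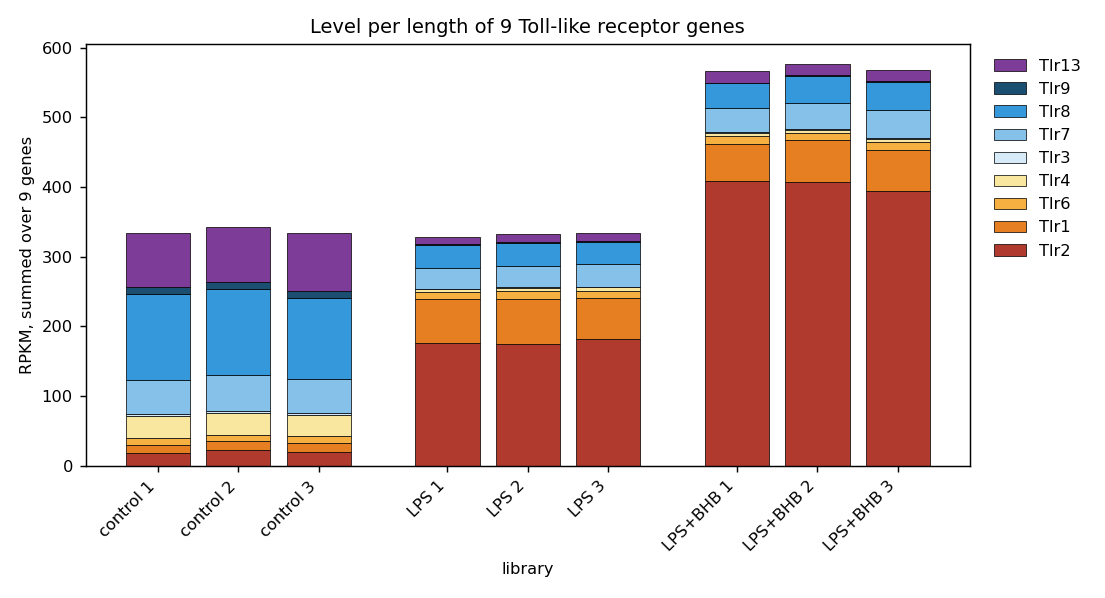
Summed level per length (RPKM) of the 9 Toll-like receptor genes in each library, stacked by gene, with surface receptors in red to yellow at the bottom and endosomal receptors in blue and purple on top. Control bars are mostly Tlr8, Tlr13 and Tlr7, and LPS and LPS plus BHB bars mostly Tlr2 and Tlr1.

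Other genes of the pathway, from lists chosen with earlier results of these data known, gave the following counts, each to be read against the 38.4% of all tested genes called higher and 41.4% called lower with LPS, and the 26.4% and 24.4% called higher and lower with added BHB. Of 8 partners in LPS recognition 6 were tested, with 1 higher and 5 lower with LPS and 3 higher and 2 lower when BHB was added. Ly96, which encodes the MD-2 subunit that binds lipopolysaccharide, was the one that rose, from 12.1 ± 0.3 to 25.4 ± 1.8 CPM, and with LPS plus BHB it fell back to 15.1 ± 0.6 CPM (SD, n = 3; log2 fold change against LPS -0.75, SE 0.08, adjusted p = 1.80e-07 by edgeR). It thus moved opposite to Cd14 when BHB was added. Cd180, a receptor relative that restrains TLR4, went from 117 ± 12 to 97.0 ± 1.8 and 51.1 ± 7.8 CPM. Its fall with BHB passed (-0.92 ± 0.10 SE; edgeR adjusted p = 1.23e-05), and its call with LPS (-0.28, adjusted p = 0.0199 by edgeR) was lost without control replicate 3 (0.0528), without LPS replicate 1 (0.0689), 2 (0.0693) or 3 (0.0608) and against control replicate 1 alone (0.132). Ly86, whose product MD-1 pairs with CD180, fell from 109 ± 9 to 14.1 ± 1.0 CPM with LPS and was at 19.0 ± 0.7 with LPS plus BHB. Itgam, a chain of complement receptor 3, fell from 870.1 ± 15.3 to 405 ± 17 CPM and was at 569 ± 38 with LPS plus BHB.

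Of 17 genes for folding, traffic and processing of these receptors, 7 rose and 9 fell with LPS, and 5 rose and 8 fell with added BHB (all genes: 38.4% and 41.4%, then 26.4% and 24.4%). Unc93b1, the chaperone gene of the endosomal receptors, followed the direction of most of them, with 1025 ± 52 CPM in the controls, 434 ± 9 with LPS alone, and 625 ± 8 when BHB was added (log2 fold changes -1.24 and 0.52, adjusted p = 6.09e-16 and 5.18e-09 by edgeR). Lgmn, a lysosomal protease gene, fell from 1474 ± 51 to 369 ± 20 CPM with LPS. Rab7b, a small GTPase of late endosomes, went from 123 ± 6 to 6.39 ± 0.60 and 3.64 ± 0.08 CPM. Ctsl, which encodes cathepsin L, rose in both steps, from 4561 ± 89 to 6241 ± 78 and 9218 ± 401 CPM. Slc15a4, an endolysosomal transporter gene, fell in both, from 116 ± 3 to 79.0 ± 3.6 and 55.9 ± 2.5 CPM.

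Of 12 genes for adaptors, IRAK family members and TRAF proteins below the receptors, 7 rose and 5 fell with LPS, where 38.4% and 41.4% of all genes did. With added BHB 7 rose and 1 fell, where 26.4% and 24.4% of all genes did. The 1 that fell was Ticam1, which encodes the adaptor TRIF of TLR3 and TLR4, at 22.5 ± 0.7 CPM in the controls, 136 ± 3 with LPS alone, and 93.9 ± 4.1 when BHB was added (-0.53 ± 0.05 SE for the last step; edgeR adjusted p = 7.50e-09). Myd88, the adaptor gene shared by all receptors of the set but TLR3, rose from 58.6 ± 1.5 to 105 ± 8 CPM with LPS. Its further rise to 116 ± 6 CPM (0.15, adjusted p = 0.0306 by edgeR) was not called with DESeq2 (0.0750), with library totals (0.141), without LPS replicate 3 (0.267) or without LPS plus BHB replicate 1 (0.126) or 2 (0.0784). Irak3, an inhibitory member of the IRAK family, rose in both steps, from 30.3 ± 2.0 to 130.5 ± 4.2 and 298 ± 11 CPM.

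Of 10 inhibitors at the receptor level 6 rose and 4 fell with LPS, and 3 rose and 2 fell with added BHB (all genes: 38.4% and 41.4%, then 26.4% and 24.4%). Tollip, an inhibitor of IRAK signalling, went from 97.2 ± 0.4 to 231 ± 7 and back to 155 ± 2 CPM. Cd300a, an inhibitory receptor gene, fell from 506.5 ± 19.8 to 33.2 ± 2.7 CPM with LPS. Of 7 nucleases 6 were tested; most act in lysosomes, where they break down nucleic acids that endosomal receptors read, but Trex1 is a cytosolic DNA exonuclease. With LPS 3 rose (Rnaset2a, Rnaset2b and Trex1) and 3 fell, and with added BHB the same 3 and Pld4 rose and 1 fell (all genes: 38.4% and 41.4%, then 26.4% and 24.4%). Pld4 followed the direction of the endosomal receptors, with 368 ± 7, 65.3 ± 3.8 and 83.8 ± 6.2 CPM. Rnaset2a rose in both steps, from 82.5 ± 2.0 to 745 ± 18 and 1064 ± 29 CPM, but 84.8% of its 31-base words occur in Rnaset2b, so the counts of both are uncertain and the pair are not separate observations.

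Cytosolic sensors, which detect microbial molecules outside endosomes, had 4 of 11 genes higher and 6 lower with LPS, and 6 higher and 2 lower with added BHB (all genes: 38.4% and 41.4%, then 26.4% and 24.4%). Ifih1, which encodes the RNA sensor MDA5, rose from 53.2 ± 3.0 to 1305 ± 5 CPM with LPS and was at 1295 ± 48 with LPS plus BHB. The related RNA helicase genes went the other way with LPS: Ddx58, which encodes RIG-I, fell from 62.2 ± 3.1 to 11.0 ± 1.1 CPM and Dhx58 from 32.1 ± 4.6 to 13.6 ± 0.6 CPM, and with added BHB they rose to 26.7 ± 6.7 and 27.2 ± 3.9 CPM. Nod2, a sensor of bacterial muropeptides, rose in both steps, from 9.18 ± 0.75 to 59.4 ± 1.5 and 96.4 ± 3.1 CPM. Ripk2, the kinase gene that acts with it, rose from 13.0 ± 0.2 to 368 ± 5 CPM and fell to 150 ± 14 CPM with LPS plus BHB.

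**Figure D4:**
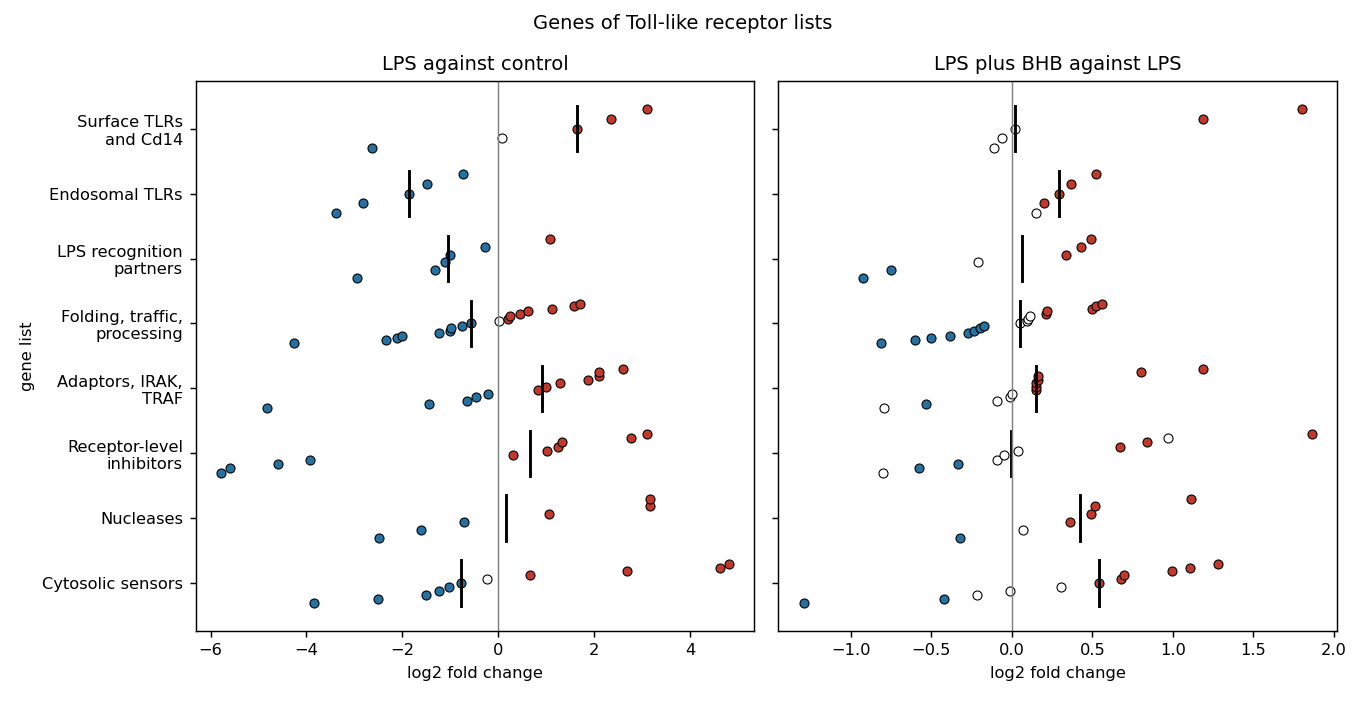
Log2 fold change of each tested gene of the receptor lists and the pathway lists for LPS against control, left, and LPS plus BHB against LPS, right, on different horizontal scales; red is called higher, blue called lower, white not called, and the black bar is the list's median. The endosomal receptors lie wholly below 0 on the left, from -3.38 to -0.74, and wholly above 0 on the right, from 0.15 to 0.52; both panels use the LPS libraries.

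For Tlr2, Tlr4 and Cd14 the genes with the most similar pattern were sought among 9328 others with a mean of at least 5 CPM, by Pearson's correlation of log2 CPM over the 9 libraries. Those libraries fall into 3 groups, so a high correlation mostly repeats the order and spacing of the group means. Nearest to Tlr2 were Lpar1 (r = 0.9996), Cav1 (0.9995) and Gsap (0.9992). Cav1, which encodes caveolin-1, went from 8.58 ± 1.24 to 237 ± 17 and 794 ± 13 CPM. Nearest to Tlr4 were Csf3r (0.9985), Wdfy4 (0.9985) and Arhgap30 (0.9981), and Csf3r, the G-CSF receptor gene, went from 254 ± 6 to 42.6 ± 1.8 and 40.1 ± 1.5 CPM. Nearest to Cd14 were Ccng2 (0.9994), Sh3pxd2a (0.9990) and Skil (0.9989), and Skil went from 67.9 ± 1.5 to 178 ± 6 and 552 ± 6 CPM. Correlations above 0.99 were reached by 243 genes for Tlr2, 291 for Tlr4 and 101 for Cd14.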

How the data were processed

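RNA from 9 libraries of bone marrow-derived macrophages was sequenced. The authors aligned the reads with HISAT2 to mm10, per the submitters' processing notes; the counting tool, annotation, strand setting and versions are not stated for this table in the labels. Deposited values are raw counts for each gene symbol, and each column was matched to its library by title.

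The filter on low counts was edgeR's filterByExpr on the groups (minimum count 10), and 14026 genes remained. After TMM scaling, all 9 libraries entered one fit with group as the only term (edgeR 4.0.16 quasi-likelihood test, R 4.3.3, robust, 6 residual degrees of freedom), two-sided, with Benjamini-Hochberg adjustment over all 14026 genes at 0.05. Approximate standard errors come from the F statistic and the log2 fold change. With 29633411 to 32798920 counts per library, counting error is small except for genes with a few counts. The test was tested on simulated data with known changes.

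Gene positions, exon lengths and shared 31-base words are from GENCODE M21 (GRCm38, the build mm10 names), and promoters are from RefSeq (GRCm38.p6). Replicates differed by more than sampling noise (chi-square per degree of freedom 3.10 to 10.4) and were counted separately. The members and lists were chosen with earlier results of these data known. Beside all members, the genes named are, for each list, from the 3 with the smallest p in each comparison, 6 fixed partner genes and the 3 nearest patterns; the rule selects more than are described. Tlr5, Tlr11, Tlr12, Acod1, Il12b, Gm45542, Trex1, Rnaset2b, Ddx58, Dhx58 and the single cell type markers were chosen after values were seen. Alternatives were DESeq2 size factors or library totals in edgeR, no low-count filter, DESeq2 1.42.0, leaving out each library, a block for the replicate number, a fit to only the 6 libraries of a comparison, control replicate 1 alone, and longest transcripts for lengths. RPKM values are TMM-scaled CPM divided by merged exon length in kilobases. Scaling of the summed receptor level by library totals was added after seeing the data.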

Additional observations from a re-analysis of the deposited data

How the results depend on the processing

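Of 480 values of the 10 genes under the alternatives, 469 kept their direction and their side of the threshold, 1 lost and 3 gained a call in the same direction, and 7 changed sign, 2 of them past the threshold. Scaling by library totals put Tlr6 at -0.19 in LPS against control and -0.22 in LPS plus BHB against control, both called, so that 7 in place of 6 genes were lower there, and at -0.0342 in LPS plus BHB against LPS. In the last comparison uncalled genes also crossed 0 when 1 library was left out: Tlr6 ranged from -0.038 to 0.0534, Tlr4 from -0.1401 to 0.00095, Tlr9 from -0.018 to 0.368 and Ifih1 from -0.0419 to 0.012. The number of the 10 genes lower with added BHB went from 0 to 1 (Tlr1) with library totals, with no filter and without LPS replicate 3, a range of 0 to 1 when single libraries were left out. Ly96, at 0.33 in LPS plus BHB against control, was at 0.00041 with library totals. Deviations from the group mean correlated at -0.017 to 0.039 between same-numbered libraries of different groups. Between differently numbered ones they correlated at -0.038 to 0.043. With 3 libraries a group, these values cannot decide whether the numbers pair the libraries. The replicate block gave 11136, 7010 and 10908 calls, against 11191, 7115 and 10990, in the 3 comparisons and changed no call of the 10 genes. Of 48 levels per length under longest transcripts or library totals, 35 moved by at least the SD of the main value. By longest transcript the order of levels per length was the same in each group, with Tlr4 in control at 41.4 in place of 30.4 RPKM. Counts of Tlr9 and Tlr3 in treated libraries limit what could be detected for them.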
